A study of Mus musculus with 36 samples.

Results

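Kidney transcripts at ZT12, when the lights go off, were compared with those at ZT0, when they come on, in mice fed a high-fat diet. Zeitgeber time (ZT) gives the hours since the lights came on. The comparison uses the 3 high-fat libraries of ZT12 (replicates 2, 4 and 5) and the 3 high-fat libraries of ZT0 (replicates 1, 3 and 4), 6 of the 36 libraries of the series, chosen by diet and time alone, and it covers all genes. The animals of every group were wild-type male C57BL/6J mice, put on their diet ad libitum at 6 weeks of age under a cycle of 12 h light and 12 h dark, and the harvest label of all reads 16 weeks without saying whether of age or of diet. The groups used here are high-fat ZT12, high-fat ZT0, normal chow ZT12 and normal chow ZT0, with 3 libraries each, and the other high-fat times (ZT4, ZT8, ZT16 and ZT20) serve to estimate the spread and to place the values in the day. The labels name the kidney with no region of it, and do not say whether each library is 1 mouse, so p-values measure the spread between libraries.

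The mammalian clock is a loop of transcription. BMAL1 (gene Arntl) with CLOCK or NPAS2 binds E-boxes and drives Per, Cry, Nr1d1, Nr1d2 and Dbp. PER and CRY proteins then repress BMAL1 and CLOCK, while the nuclear receptors REV-ERB (Nr1d1, Nr1d2) and ROR (such as Rora) compete at RORE sites to lower or raise Arntl, and DBP, TEF and HLF act through D-boxes on a wider set of genes. In the kidney this loop is known to act on the daily course of water and salt handling, and feeding and hormones such as glucocorticoids also shape daily transcription.

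The promoters of 4 clock genes that differed between the times are shown because their windows hold the sites named above. Each is the RefSeq window from 250 bases before to 50 bases after the start of transcription on GRCm38.p6, written 5′ to 3′ in the direction of the gene. Capitals mark an E-box (CACGTG) in Ciart and Per1, a D-box (TTANNTAA) in Per3 and a RORE (TAGGTCA) in Arntl, each searched on both strands. The windows are chr3:95882179-95882478 on the minus strand for Ciart, chr11:69098699-69098998 on the plus strand for Per1, chr4:151044616-151044915 on the minus strand for Per3 and chr7:113207261-113207560 on the plus strand for Arntl.
Ciart: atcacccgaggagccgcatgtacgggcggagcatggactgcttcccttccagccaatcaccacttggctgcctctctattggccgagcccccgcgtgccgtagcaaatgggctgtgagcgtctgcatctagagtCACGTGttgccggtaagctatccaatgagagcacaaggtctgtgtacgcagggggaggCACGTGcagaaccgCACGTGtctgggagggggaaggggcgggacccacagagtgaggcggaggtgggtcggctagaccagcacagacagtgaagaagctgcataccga
Per1: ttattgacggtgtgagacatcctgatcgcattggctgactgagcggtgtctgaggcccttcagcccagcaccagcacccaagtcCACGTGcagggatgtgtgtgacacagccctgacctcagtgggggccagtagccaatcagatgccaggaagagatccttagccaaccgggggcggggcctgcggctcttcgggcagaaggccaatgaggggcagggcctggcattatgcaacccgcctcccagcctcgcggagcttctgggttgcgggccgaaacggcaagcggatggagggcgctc
Per3: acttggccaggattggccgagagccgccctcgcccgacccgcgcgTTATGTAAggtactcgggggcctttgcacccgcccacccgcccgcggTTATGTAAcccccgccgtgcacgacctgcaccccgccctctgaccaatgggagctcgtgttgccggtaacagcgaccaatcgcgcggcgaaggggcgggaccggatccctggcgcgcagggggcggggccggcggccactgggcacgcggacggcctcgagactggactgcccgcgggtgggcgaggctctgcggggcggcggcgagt
Arntl: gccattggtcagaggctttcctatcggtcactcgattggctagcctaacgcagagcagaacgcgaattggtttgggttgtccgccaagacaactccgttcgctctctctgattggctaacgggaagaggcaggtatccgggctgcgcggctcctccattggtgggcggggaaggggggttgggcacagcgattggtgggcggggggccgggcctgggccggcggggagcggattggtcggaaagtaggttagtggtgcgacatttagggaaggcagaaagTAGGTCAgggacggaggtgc
The Ciart window held 3 E-boxes, which begin 116, 58 and 44 bases before the start, the Per1 window 1, the Per3 window 2 D-boxes and the Arntl window 1 RORE, which begins at base 31 after the start. Of the 20 clock genes with a window, of 26 measured, 5 held an E-box, 3 a D-box and 2 a RORE. The genes shown are a choice among these. Tef, which also differed between the times, held an E-box and a D-box. Cry1 (E-box), Lonrf3 (E-box and D-box) and Nfil3 (RORE) held sites but did not differ at an adjusted p under 0.05. Over all 32851 windows the shares were 7.15% for the E-box, 6.00% for the D-box and 2.61% for the RORE. Counted per gene, as for the clock genes, they were 12.1%, 4.6% and 2.46% of the 8461 tested genes that had a window. These matches describe the letters of a short window and nothing more.

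All levels are FPKM, that is, fragments scaled by the length of the transcript and by the mapped total of the library, a unit that allows levels of different genes to be set side by side. Relative depth, estimated from the steps between low values, was 0.68 to 1.19 in the 3 ZT12 libraries and 0.846 to 1.27 in the 3 ZT0 libraries, and absolute depth is unknown. Kidney markers were present in all 6: the 5 proximal tubule markers summed to 2883 to 3058 FPKM at ZT12 and 2782 to 2926 FPKM at ZT0. Adipocyte transcripts varied widely between libraries. The 12 adipocyte markers summed to 434, 201 and 108 FPKM at ZT12, against 556, 371 and 1003 FPKM at ZT0, lowest in ZT12 replicate 5 and highest in ZT0 replicate 4. Blood transcripts summed to 584 to 870 FPKM at ZT12 and 914 to 1481 FPKM at ZT0. Of 9 adrenal cortex markers 8 were under 1 FPKM in all 6 libraries. Because whole tissue was measured, fewer cells of a type and less RNA per cell cannot be told apart.

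Of 11076 genes with a mean of at least 1 FPKM over the 18 high-fat libraries, 950 (8.58%) differed between ZT12 and ZT0 at an adjusted p under 0.05. Of these, 255 (2.3%) were higher at ZT12, with a median change of 1.43-fold, and 695 (6.27%) were lower, with a median change of 1.38-fold. A change of at least 1.5-fold was reached by 106 of the higher and 227 of the lower genes. The steepest rises were those of Ciart (9.77-fold) and Dbp (8.76-fold) among the clock genes, and Arntl fell 6.53-fold. The test was limma with a mean-variance trend on log2(FPKM + 0.5), with Benjamini-Hochberg adjustment over all genes tested, and all folds and log2 differences below are on that scale, where the added 0.5 shrinks the change of genes near or under that level.

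**Figure D1:**
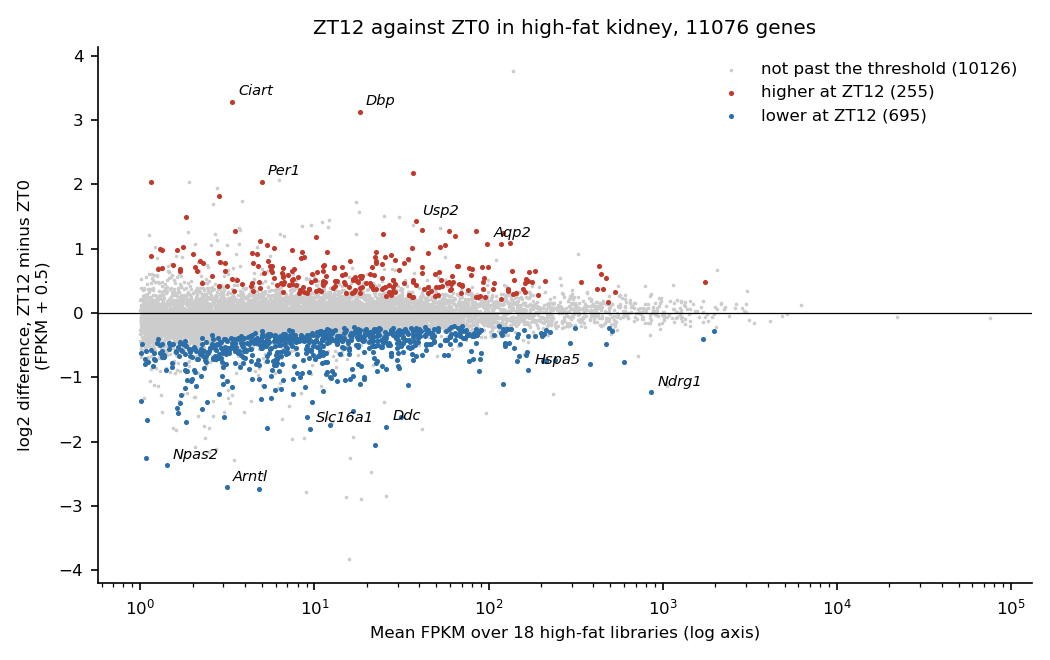
Log2 difference between ZT12 and ZT0 (vertical axis, from FPKM + 0.5) against mean FPKM over the 18 high-fat libraries (horizontal log axis), 1 point per gene. Red points are the 255 genes higher at ZT12 and blue points the 695 lower at ZT12 at an adjusted p under 0.05; among the genes named in the plot Ciart and Dbp lie highest and Arntl and Npas2 lowest.

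The 3 ZT12 values lay wholly above or below the 3 ZT0 values for 946 of the 950 genes, against 3674 (33.2%) of all genes tested. The balance between the directions depended on scaling: 73.2% of called genes were lower with FPKM as deposited, and 45.3% (526 higher, 435 lower) after each library was rescaled by its median ratio to the average library. The median of all genes was -0.09 log2 as deposited and -0.01 after that rescaling. The number of genes called also rested on single libraries. It was 362 without ZT12 replicate 5, 569 without ZT12 replicate 4, 625 without ZT0 replicate 1, 492 without ZT0 replicate 3, 616 without ZT0 replicate 4, and 230 without ZT12 replicate 5 and ZT0 replicate 4 together, of which 221 were called in the same direction with all libraries. With the adipocyte score of each library (its mean log2 level of adipocyte markers) as a covariate 404 genes were called, 385 of them in the same direction as without it. Of the genes described below, Wee1, Bhlhe40, Cyp7b1, Slc22a7, Mt1, Mt2, Herpud1, Ace, Kcnj10, Slc8a1, Trpm6, Pgk1, Suclg2, Bdh1, Msmo1, Fdps, Insig1, Lyz2, Ccl6, Anxa1, Lep, Sparc, Col3a1, Col4a2, Podxl, Synpo, Atp6v1g3, Hbb-b1, Hbb-b2 and the heat shock chaperones lost their call with that covariate. With the spread taken from all 36 libraries 423 genes were called, and Kl, Aqp6, Igfbp1, Idi1, Ephx1, Cml5, Kcnj1 and Mt1 were among those lost (adjusted p = 0.122, 0.190, 0.176, 0.114, 0.319, 0.121, 0.0577 and 0.113).

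ZT12 and ZT0 were the extremes of the day for many of these genes. Of the 255 genes higher at ZT12, 153 had their highest mean of the 6 times at ZT12 and 156 their lowest at ZT0. Of the 695 lower genes, 475 had their lowest mean at ZT12 and 485 their highest at ZT0. These counts follow in part from the choice of the 2 times and carry no test.

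Among the clock's activators and receptors the Arntl and Npas2 transcripts fell at ZT12. Of 7 measured genes 2 fell (Arntl and Npas2) and 2 rose (Nr1d2 among them), against 6.27% and 2.3% of all genes. Arntl (chr7:113207465-113314126 on GRCm38) had 0.582, 0.517 and 0.722 FPKM at ZT12, against 6.72, 7.16 and 6.27 FPKM at ZT0 (log2 difference -2.71 ± 0.18 (SE), adjusted p = 3.03e-07). Npas2, which can stand in for CLOCK, had 0.278, 0.201 and 0.197 FPKM at ZT12, against 3.38, 3.71 and 2.64 FPKM at ZT0 (log2 difference -2.36 ± 0.21 (SE), adjusted p = 5.37e-06). In both genes all 3 ZT12 libraries were far below all 3 ZT0 libraries. Clock itself had 1.64, 1.60 and 1.89 FPKM at ZT12, against 2.30, 2.37 and 2.43 FPKM at ZT0, and this difference of -0.38 ± 0.14 did not pass (adjusted p = 0.0925). The mean of Arntl was 0.340 ± 0.0953 FPKM at ZT8, below its 0.607 ± 0.105 FPKM at ZT12, and 6.06 ± 0.567 FPKM at ZT20, near its 6.72 ± 0.444 FPKM at ZT0 (SD, n = 3).

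Of the REV-ERB receptors 1 passed. Nr1d2 had 8.23, 7.60 and 6.39 FPKM at ZT12, against 3.86, 3.63 and 2.83 FPKM at ZT0 (log2 difference 1.01 ± 0.18 (SE), adjusted p = 0.00310), with no overlap between the groups. Nr1d1 had 12.3, 14.8 and 13.3 FPKM at ZT12, against 19.1, 17.7 and 16.2 FPKM at ZT0, a difference of -0.38 ± 0.16 that did not pass (adjusted p = 0.157). Nr1d1 was highest at ZT4 (34.3 ± 6.37 FPKM) and lowest at ZT16 (2.55 ± 0.830 FPKM) (SD, n = 3), with its ZT12 and ZT0 means between these. Rora, an activator at RORE sites, had a difference of 0.34 ± 0.18 (adjusted p = 0.246).

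**Figure D2:**
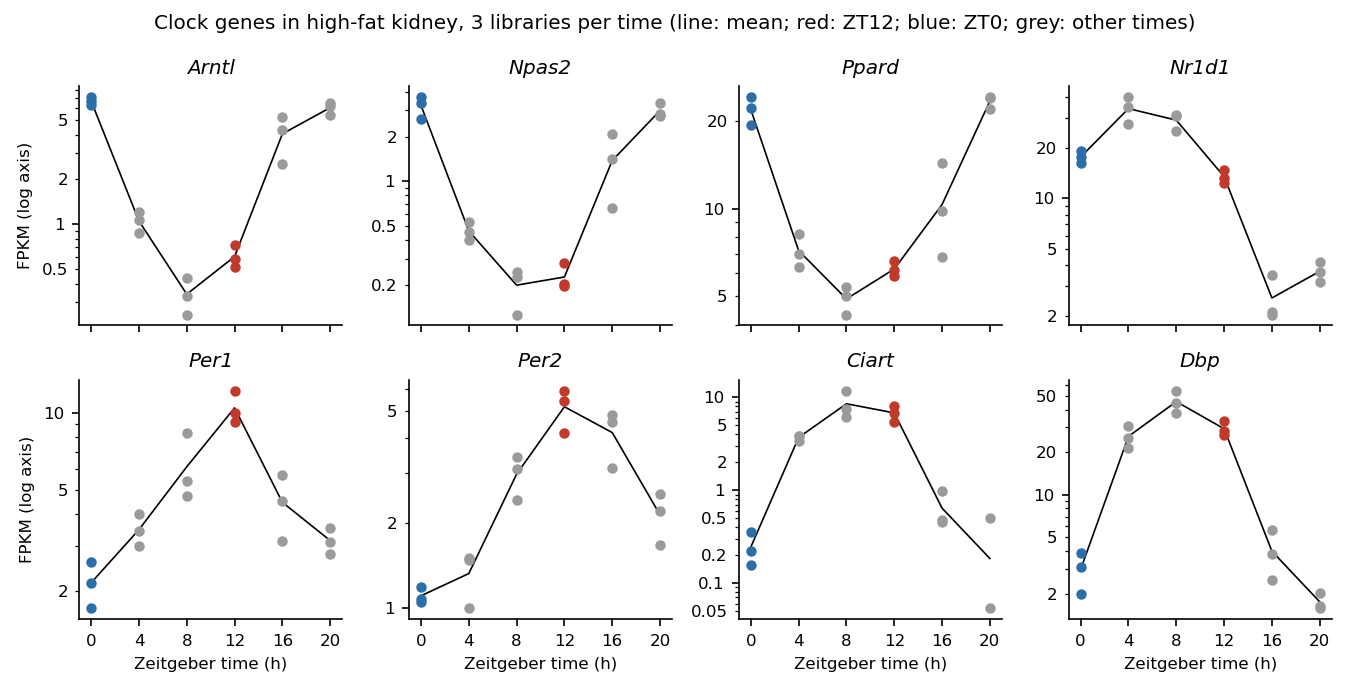
FPKM (log axis) of 8 clock genes at the 6 times of the high-fat diet (horizontal axis, zeitgeber time in hours), 1 point per library and a line through the means of 3 libraries. Red points mark ZT12 and blue points ZT0: Arntl, Npas2 and Ppard are near their low at ZT12 and near their high at ZT0, Per1 and Per2 have their highest mean at ZT12, and Nr1d1 lies between its extremes at both times.

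Much of the negative arm rose. Of 10 measured repressors and their regulators, 6 were higher at ZT12 (60%, against 2.3% of all genes). None was lower (against 6.27%), and the median was 0.74 log2. Ciart, which encodes CHRONO, a repressor of BMAL1 and CLOCK, and whose window above holds the 3 E-boxes, had 5.45, 8.18 and 6.83 FPKM at ZT12, against 0.355, 0.158 and 0.221 FPKM at ZT0 (log2 difference 3.29 ± 0.26 (SE), adjusted p = 1.00e-06). Per1 had 9.95, 12.2 and 9.16 FPKM at ZT12, against 2.60, 2.16 and 1.72 FPKM at ZT0 (log2 difference 2.04 ± 0.20 (SE), adjusted p = 1.52e-05). Per2 had 5.91, 5.44 and 4.18 FPKM at ZT12, against 1.05, 1.07 and 1.18 FPKM at ZT0 (log2 difference 1.81 ± 0.18 (SE), adjusted p = 1.36e-05). In these 3 genes every ZT12 library exceeded every ZT0 library by a wide margin, and Per1 and Per2 had their highest mean of the day at ZT12. Per3, with the 2 D-boxes, had 3.63, 2.99 and 2.70 FPKM at ZT12, against 0.937, 0.721 and 0.686 FPKM at ZT0 (log2 difference 1.49 ± 0.17 (SE), adjusted p = 6.82e-05). Cry2 had 5.79, 6.06 and 6.69 FPKM at ZT12, against 3.32, 3.21 and 2.58 FPKM at ZT0 (log2 difference 0.92 ± 0.13 (SE), adjusted p = 0.000313). Cry1 overlapped between the groups, with 1.76, 1.76 and 1.21 FPKM at ZT12, against 1.12, 1.56 and 1.05 FPKM at ZT0 (adjusted p = 0.525), and its highest mean, 4.03 ± 1.08 FPKM (SD, n = 3), came at ZT16.

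Bhlhe40 (DEC1), a repressor that competes for E-boxes, was called at 0.55 ± 0.17 with an adjusted p of 0.0483. That call was lost without ZT0 replicate 3 (adjusted p = 0.148), ZT0 replicate 4 (0.132), ZT12 replicate 2 (0.0739), ZT12 replicate 4 (0.166) or ZT12 replicate 5 (0.0807). The kinases that phosphorylate PER did not pass: the differences were -0.19 ± 0.07 for Csnk1d and -0.25 ± 0.15 for Csnk1e (adjusted p = 0.120 and 0.286).

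Output factors of the clock also rose in the main, with 6 of 9 higher (66.7%) and 1 lower (11.1%), against 2.3% and 6.27% of all genes. Their median was 0.93 log2, against -0.09 for all genes. Dbp (chr7:45705088-45710203 on GRCm38), the D-box activator, had 26.2, 33.4 and 28.1 FPKM at ZT12, against 3.86, 1.97 and 3.08 FPKM at ZT0 (log2 difference 3.13 ± 0.23 (SE), adjusted p = 4.73e-07). It shares 539 exon bases, 18% of its own, with Sphk2 on the opposite strand, and reads of such a pair cannot be told apart without strand. Its relatives changed less: Tef had 62.3, 59.4 and 56.2 FPKM at ZT12, against 38.9, 32.6 and 22.6 FPKM at ZT0 (log2 difference 0.94 ± 0.14 (SE), adjusted p = 0.000615), and Hlf had 17.4, 16.3 and 15.5 FPKM at ZT12, against 11.3, 11.3 and 9.57 FPKM at ZT0 (log2 difference 0.59 ± 0.12 (SE), adjusted p = 0.00541). The ZT12 and ZT0 libraries did not overlap in any of the 3, and Hlf lost its call without ZT12 replicate 5 and ZT0 replicate 4 together (adjusted p = 0.0601). Nfil3, the repressor that opposes them at D-boxes, had 6.84, 2.15 and 3.71 FPKM at ZT12, against 8.19, 6.64 and 7.24 FPKM at ZT0, and with 1 ZT12 library inside the range of ZT0 it did not pass (adjusted p = 0.124).

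Usp2, a deubiquitinase, had 56.0, 58.2 and 56.7 FPKM at ZT12, against 22.3, 20.7 and 19.4 FPKM at ZT0 (log2 difference 1.43 ± 0.10 (SE), adjusted p = 3.03e-07). Tsku, a secreted protein, had 16.9, 14.3 and 14.6 FPKM at ZT12, against 8.73, 7.91 and 3.84 FPKM at ZT0 (log2 difference 1.18 ± 0.24 (SE), adjusted p = 0.00690), and lost its call without ZT12 replicate 5 and ZT0 replicate 4 together (adjusted p = 0.0665). The one output gene that fell was Ppard, which encodes the fatty acid-sensing receptor PPAR delta: it had 6.15, 6.60 and 5.86 FPKM at ZT12, against 19.3, 24.1 and 22.1 FPKM at ZT0 (log2 difference -1.73 ± 0.18 (SE), adjusted p = 1.94e-05). Its high at ZT0 continued that of ZT20 (23.4 ± 1.19 FPKM, SD, n = 3). Wee1, a kinase that holds back mitosis, was called at 0.93 ± 0.23 (adjusted p = 0.0201), but not without ZT0 replicate 3 (0.0639), ZT0 replicate 4 (0.0546), ZT12 replicate 2 (0.0658) or ZT12 replicate 4 (0.0516). Lonrf3 did not pass (-0.25 ± 0.17, adjusted p = 0.350).

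Most of the measured chaperones of the endoplasmic reticulum fell at ZT12. Of 20 measured genes of protein folding and quality control in that compartment, 13 were lower and 1 was higher, against 6.27% and 2.3% of all genes, with a median of -0.50 log2 against -0.09. Hspa5 (BiP), the main chaperone of the lumen, had 144, 123 and 103 FPKM at ZT12, against 224, 203 and 252 FPKM at ZT0 (log2 difference -0.88 ± 0.13 (SE), adjusted p = 0.000657). Hsp90b1 (GRP94) had 119, 107 and 96.4 FPKM at ZT12, against 177, 176 and 184 FPKM at ZT0 (log2 difference -0.74 ± 0.08 (SE), adjusted p = 3.33e-05). Pdia3, a disulfide isomerase, had 126, 112 and 104 FPKM at ZT12, against 175, 179 and 187 FPKM at ZT0 (log2 difference -0.66 ± 0.07 (SE), adjusted p = 2.95e-05). In all 3 genes the ZT12 libraries lay below the ZT0 libraries, with replicate 5 the lowest of ZT12. The isomerase Pdia6 (-0.74 ± 0.09) and the calcium-binding lectin Calr (-0.48 ± 0.07) also fell, as did Sdf2l1 (-0.94 ± 0.18) and Manf (-0.86 ± 0.13), which are known to be induced with BiP under stress of that compartment, although Sdf2l1 lost its call without ZT12 replicate 5 and ZT0 replicate 4 together. The exception was Herpud1, a factor of protein degradation at the membrane, with 141, 159 and 138 FPKM at ZT12, against 129.9, 109.8 and 106 FPKM at ZT0 (log2 difference 0.34 ± 0.10 (SE), adjusted p = 0.0420). The number lower was 12 to 14 without any 1 library of the 6, 12 with the adipocyte covariate and 8 without ZT12 replicate 5 and ZT0 replicate 4 together, whereas the Herpud1 call was kept without ZT0 replicate 1 and lost without any other single library.

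Cytosolic and mitochondrial heat shock chaperones were lower in part. Of 21 measured, 7 fell (33.3%, against 6.27% of all genes) and none rose (against 2.3%), with a median of -0.27 log2. Hsp90aa1, the inducible HSP90, had 79.4, 61.3 and 52.5 FPKM at ZT12, against 97.5, 110.1 and 106 FPKM at ZT0 (log2 difference -0.72 ± 0.17 (SE), adjusted p = 0.0180). The HSP90 cochaperone Stip1 had 39.8, 40.2 and 39.4 FPKM at ZT12, against 48.1, 50.3 and 51.1 FPKM at ZT0 (log2 difference -0.32 ± 0.07 (SE), adjusted p = 0.00901). The other 5 called genes had differences between -0.53 (Hsph1) and -0.27 (Hsp90ab1). This count rested on single libraries, with 4 lower without ZT0 replicate 1, 3 without ZT0 replicate 3, ZT0 replicate 4 or ZT12 replicate 4, 1 without ZT12 replicate 5 and 9 without ZT12 replicate 2, 2 after median ratio rescaling, and none with the adipocyte covariate. Hsp90aa1 in particular did not pass without ZT0 replicate 3 (adjusted p = 0.0632), ZT0 replicate 4 (0.0517), ZT12 replicate 4 (0.0587) or ZT12 replicate 5 (0.104). The heat shock element, searched on both strands, was found in windows of 4 of the 17 genes that had one (Hspd1, Hspe1, Hsph1 and Chordc1) and in those of 0.662% of the 8461 tested genes that had one (0.603% of all windows). The windows of Hspd1 and Hspe1 overlap on opposite strands, and their matches are the same bases, counted for both genes.

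**Figure D3:**
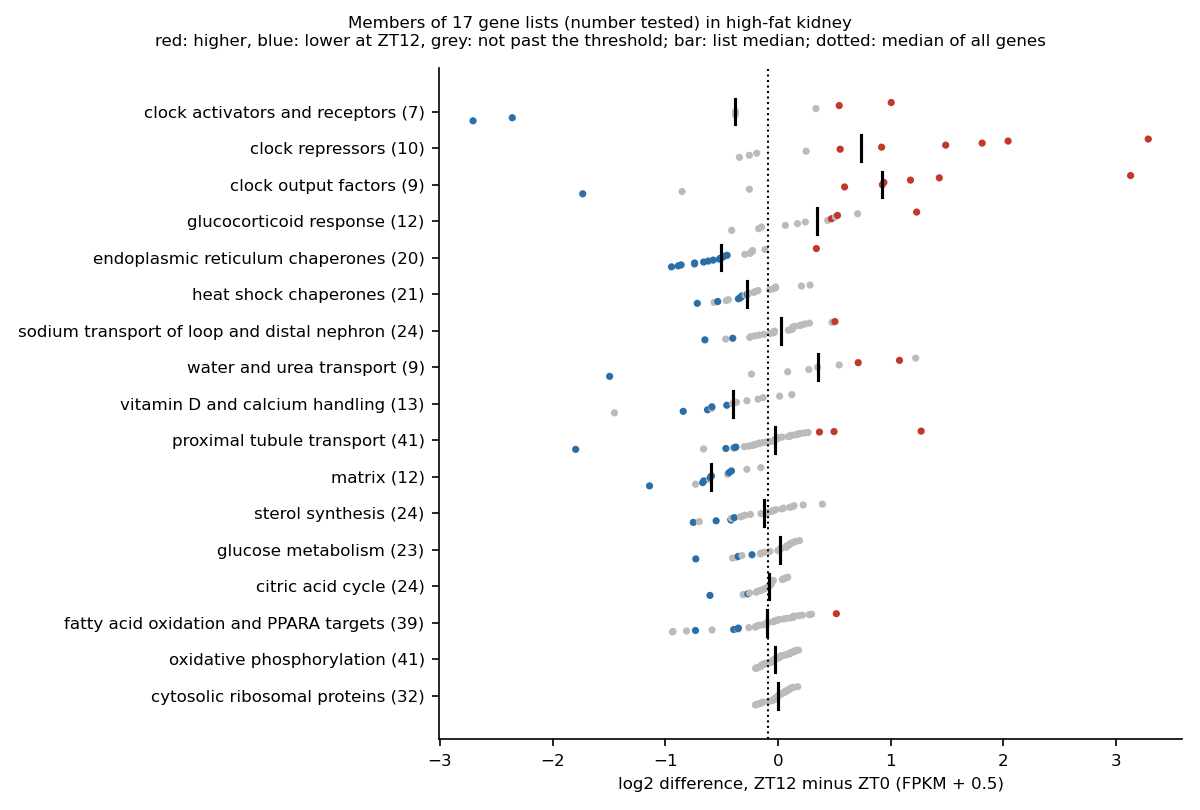
Log2 difference between ZT12 and ZT0 (horizontal axis) for every measured member of 17 gene lists, 1 point per gene, with red for higher and blue for lower at ZT12 at an adjusted p under 0.05 and grey for the rest. The black bar is the median of the list and the dotted line that of all genes (-0.09): endoplasmic reticulum chaperones and matrix genes lie to its left, while oxidative phosphorylation and ribosomal protein genes lie close to it.

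Outside the clock, the genes with the largest rises included enzymes, a water channel and a glucocorticoid target. Tsc22d3 (GILZ), induced by glucocorticoids, had 37.9, 44.4 and 30.3 FPKM at ZT12, against 15, 14.5 and 17.2 FPKM at ZT0 (log2 difference 1.23 ± 0.20 (SE), adjusted p = 0.00115). Aacs, which activates the ketone body acetoacetate, had 98.9, 68.2 and 63.2 FPKM at ZT12, against 28.8, 35 and 34.1 FPKM at ZT0 (log2 difference 1.20 ± 0.17 (SE), adjusted p = 0.000408). Acy1, an aminoacylase that frees amino acids from their acetylated forms, had 193, 183 and 176 FPKM at ZT12, against 96.6, 85.7 and 76.1 FPKM at ZT0 (log2 difference 1.10 ± 0.13 (SE), adjusted p = 6.00e-05). In each of these 3 the lowest ZT12 library lay well above the highest ZT0 library, but groups without overlap were a condition for their choice. The tetraspanin Tspan4 had 57.4, 68.6 and 57.1 FPKM at ZT12, against 25.8, 22.8 and 24.9 FPKM at ZT0 (log2 difference 1.30 ± 0.11 (SE), adjusted p = 3.41e-06), and Susd3 had 122, 105 and 116 FPKM at ZT12, against 49.5, 44.7 and 46.9 FPKM at ZT0 (log2 difference 1.27 ± 0.20 (SE), adjusted p = 0.000868). Of Tspan4, 13.4% of the exon bases overlap Chid1 on the opposite strand. Cml5, of the camello family of acetyltransferases, changed by 1.08 ± 0.17 (adjusted p = 0.000961), and reads of its close relatives may not have been split from it.

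Cyp7b1 and Slc22a7 varied widely at ZT0. Cyp7b1, an oxysterol hydroxylase, had 52.2, 55.7 and 41.7 FPKM at ZT12, against 39.3, 10.8 and 2.51 FPKM at ZT0 (log2 difference 2.18 ± 0.63 (SE), adjusted p = 0.0414). The organic anion transporter Slc22a7 had 87.8, 71.5 and 55.2 FPKM at ZT12, against 47.0, 23.4 and 21.6 FPKM at ZT0 (log2 difference 1.27 ± 0.37 (SE), adjusted p = 0.040). Both kept their call without ZT0 replicate 1, the ZT0 library nearest to ZT12, and lost it without any other single library, with adjusted p between 0.0806 and 0.148 for Cyp7b1 and between 0.0698 and 0.128 for Slc22a7. The log2 difference of Cyp7b1 was 3.10 without ZT0 replicate 1 and 1.24 without ZT0 replicate 4.

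Of 12 measured glucocorticoid-responsive genes 3 rose (25%, against 2.3% of all genes) and none fell (against 6.27%). The 3 were Tsc22d3 and the metallothioneins Mt1 (0.53 ± 0.11) and Mt2 (0.48 ± 0.12). Mt1 had 159, 216 and 207 FPKM at ZT12, against 139.6, 143 and 118 FPKM at ZT0. Its call was lost without ZT12 replicate 5 (adjusted p = 0.0545). The call of Mt2 was kept only without ZT12 replicate 2. With the other single libraries left out its adjusted p was 0.0685 (ZT0 replicate 1), 0.0641 (ZT0 replicate 3), 0.0659 (ZT0 replicate 4), 0.114 (ZT12 replicate 4) and 0.0862 (ZT12 replicate 5). Of its exon bases 73.5% overlap an antisense RNA. The feedback regulator Fkbp5 (0.44 ± 0.21, adjusted p = 0.187) and the kinase Sgk1 (0.71 ± 0.34, adjusted p = 0.193) did not pass.

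Outside the clock, several of the large falls were those of transporters and enzymes of the tubule. Ddc (chr11:11814101-11898144 on GRCm38), the decarboxylase that makes dopamine in the proximal tubule, had 12.5, 12.4 and 12.1 FPKM at ZT12, against 49.6, 38.7 and 41.9 FPKM at ZT0 (log2 difference -1.76 ± 0.13 (SE), adjusted p = 4.73e-07). Slc16a1 (chr3:104638668-104658462), the lactate and pyruvate transporter MCT1, had 4.55, 3.55 and 4.46 FPKM at ZT12, against 13.5, 16.7 and 17.1 FPKM at ZT0 (log2 difference -1.80 ± 0.15 (SE), adjusted p = 1.53e-06). The fatty acid-binding protein Fabp7 had 4.21, 4.22 and 5.54 FPKM at ZT12, against 13.2, 15.3 and 17.1 FPKM at ZT0 (log2 difference -1.61 ± 0.12 (SE), adjusted p = 4.73e-07). These 3 differed by about as much as the clock factor Ppard, and the highest ZT12 library stayed well below the lowest ZT0 library in each. That the groups do not overlap was a condition for choosing them. Acmsd, which diverts the kynurenine pathway away from NAD, had 12.9, 8.87 and 7.14 FPKM at ZT12, against 24.0, 26.8 and 33.0 FPKM at ZT0 (log2 difference -1.52 ± 0.17 (SE), adjusted p = 5.34e-05). Ndrg1, a stress-responsive gene expressed at a high level here, had 525, 494 and 537 FPKM at ZT12, against 1229.9, 1267 and 1154 FPKM at ZT0 (log2 difference -1.23 ± 0.11 (SE), adjusted p = 5.40e-06). Arrdc3, an arrestin-like adaptor, had 4.97, 5.84 and 5.84 FPKM at ZT12, against 12.1, 14.6 and 13.8 FPKM at ZT0 (log2 difference -1.21 ± 0.27 (SE), adjusted p = 0.0110), and lost its call without ZT12 replicate 5 and ZT0 replicate 4 together (adjusted p = 0.0927).

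Water and hormone handling showed a few clear changes among many genes that did not pass. Aqp2, the water channel that vasopressin controls in the collecting duct, had 138, 155 and 140.0 FPKM at ZT12, against 71.1, 60.3 and 72.8 FPKM at ZT0 (log2 difference 1.08 ± 0.12 (SE), adjusted p = 4.46e-05). Aqp6, an anion-permeable aquaporin of intercalated cells, had 16.4, 19.3 and 18.9 FPKM at ZT12, against 11.3, 9.72 and 11.7 FPKM at ZT0 (log2 difference 0.71 ± 0.12 (SE), adjusted p = 0.00152). Avpr1a, a vasopressin receptor, had 1.26, 1.13 and 0.671 FPKM at ZT12, against 2.89, 3.91 and 4.52 FPKM at ZT0 (log2 difference -1.49 ± 0.17 (SE), adjusted p = 5.34e-05). The channels were thus higher and this receptor lower at ZT12, while Avpr2, the receptor that acts on Aqp2, had a difference of -0.23 ± 0.12 (adjusted p = 0.235). These were the 2 rises and the 1 fall among 9 measured genes of water and urea transport (22.2% and 11.1%, against 2.3% and 6.27% of all genes). Without ZT0 replicate 1 the rises numbered 5. The 4 principal cell markers, Aqp2 among them, summed to 273 to 305 FPKM at ZT12 and 185 to 199 FPKM at ZT0.

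Of 24 measured genes of sodium and potassium transport in the loop and distal nephron, 1 rose (4.17%) and 2 fell (8.33%). Of all genes 2.3% rose and 6.27% fell, so these counts are near the share of all genes. Prss8 (prostasin), a protease that activates the epithelial sodium channel, had 223, 237 and 247 FPKM at ZT12, against 183, 169 and 146 FPKM at ZT0 (log2 difference 0.51 ± 0.09 (SE), adjusted p = 0.00301), with no overlap, and lost its call without ZT12 replicate 5 and ZT0 replicate 4 together (adjusted p = 0.0737). The potassium channel Kcnj1 (ROMK) changed by -0.65 ± 0.15 (adjusted p = 0.0143), a call lost without ZT0 replicate 3 (0.0502) or ZT12 replicate 5 (0.0855). Kcnj10 (-0.40 ± 0.11, adjusted p = 0.0310) lost its call without any 1 of the 6 libraries. The main salt carriers of these segments did not pass, with differences of 0.12 ± 0.35 for Slc12a1 and -0.03 ± 0.07 for Slc12a3 (adjusted p = 0.852 and 0.796). In the renin-angiotensin system 2 of 8 genes passed, 1 in each direction (12.5% each, against 2.3% higher and 6.27% lower of all genes). Agtr1a, the angiotensin II receptor, fell with 13.2, 12.2 and 11.6 FPKM at ZT12, against 19.7, 18 and 16.7 FPKM at ZT0 (log2 difference -0.54 ± 0.09 (SE), adjusted p = 0.00180). Ace, the converting enzyme, was called at 0.60 ± 0.16 (adjusted p = 0.0309), which did not hold without any single library of the contrast (adjusted p 0.0547 to 0.124).

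Of 13 measured genes of vitamin D and calcium handling 4 fell (30.8%, against 6.27% of all genes) and none rose. Kl (klotho), the FGF23 coreceptor, had 69.8, 64.8 and 55.2 FPKM at ZT12, against 95.0, 95.6 and 93.7 FPKM at ZT0 (log2 difference -0.59 ± 0.09 (SE), adjusted p = 0.00112). The calcium buffer Calb1 (-0.63 ± 0.15), the exchanger Slc8a1 (-0.84 ± 0.22) and the magnesium channel Trpm6 (-0.45 ± 0.12) made up the rest. The count was 2 without ZT0 replicate 1 or ZT0 replicate 4, 1 without ZT0 replicate 3 or ZT12 replicate 5, and 4 without ZT12 replicate 2 or ZT12 replicate 4, with Kl called in each of these fits (highest adjusted p 0.00887). It was 2 with the adipocyte covariate, with no filter on low values or with a filter at a mean FPKM of 5, and 0 with the spread taken from all 36 libraries. Cyp24a1, which inactivates vitamin D, had 4.97, 4.08 and 2.76 FPKM at ZT12, against 22.9, 14.9 and 4.12 FPKM at ZT0, with overlap between the groups and no call (adjusted p = 0.0923).

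Of 41 measured proximal tubule transporters 3 rose (7.32%, against 2.3% of all genes) and 4 fell (9.76%, against 6.27%), with a median of -0.03 log2. The rises numbered 1 without any single library other than ZT0 replicate 1, and 7 after median ratio rescaling. The falls numbered 1 without ZT0 replicate 1 and 2 without ZT12 replicate 4 or ZT12 replicate 5. Slc9a3r1 (NHERF1), the scaffold that holds phosphate carriers at the brush border, had 209, 189 and 195 FPKM at ZT12, against 146, 135 and 138 FPKM at ZT0 (log2 difference 0.50 ± 0.08 (SE), adjusted p = 0.00144). The phosphate carrier Slc34a1 itself differed by 0.09 ± 0.09 (adjusted p = 0.518), and the glucose carrier Slc5a2 by -0.05 ± 0.12 (adjusted p = 0.827). Slc16a1, described above, and Slc9a3r1 were the members of the 7 that held in every alternative.

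In central metabolism, of 23 measured genes of glucose metabolism 3 fell (13%), of 24 of the citric acid cycle 2 fell (8.33%), and of 39 of fatty acid oxidation 4 fell (10.3%) and 1 rose (2.56%), against 6.27% lower and 2.3% higher of all genes. Idh1, the cytosolic isocitrate dehydrogenase that makes NADPH, had 133, 136 and 138 FPKM at ZT12, against 191, 201 and 228 FPKM at ZT0 (log2 difference -0.60 ± 0.10 (SE), adjusted p = 0.00112). Pgam1, of glycolysis, had 147, 155 and 141 FPKM at ZT12, against 187, 188 and 189.8 FPKM at ZT0 (log2 difference -0.35 ± 0.06 (SE), adjusted p = 0.000932), and Etfdh, which passes electrons from fatty acid oxidation to the respiratory chain, had 66.7, 63.7 and 60.3 FPKM at ZT12, against 90.4, 81.9 and 78.7 FPKM at ZT0 (log2 difference -0.39 ± 0.07 (SE), adjusted p = 0.00223). In each of these 3 genes the libraries of the 2 times did not overlap. The other calls in these lists, all under 1.7-fold, were Pgk1, G6pc, Suclg2, Acot1, Acot2, Acaa2 and Bdh1, of which Bdh1 was the one that rose, and each was lost in at least 1 alternative. Acot1 and Acot2 are close copies whose reads the counting could split. None of 41 oxidative phosphorylation genes and none of 32 cytosolic ribosomal protein genes passed in limma, against 8.58% of all genes. Of these genes 7 and 4 had an unadjusted p under 0.05, against 2929 of all 11076, and the differences lay between -0.20 and 0.18.

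Of 24 measured sterol synthesis genes 5 fell (20.8%, against 6.27% of all genes) and none rose (against 2.3%). Idi1, the isopentenyl isomerase, had 19.3, 15 and 14.4 FPKM at ZT12, against 25.2, 30.6 and 26.9 FPKM at ZT0 (log2 difference -0.75 ± 0.12 (SE), adjusted p = 0.00112). Its ZT12 libraries were all below its ZT0 libraries. Among the others were Msmo1 (-0.55 ± 0.14), Fdps (-0.42 ± 0.11) and Insig1 (-0.42 ± 0.11). Each of these last 3 lost its call without ZT12 replicate 5. The count was 4 without ZT0 replicate 1, 2 without ZT0 replicate 3, 3 without ZT0 replicate 4, 2 without ZT12 replicate 4 and 2 without ZT12 replicate 5.

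Cofactor and detoxification genes moved in both directions. Por, the reductase that feeds electrons to cytochromes P450, had 211, 197 and 221 FPKM at ZT12, against 138, 137 and 127 FPKM at ZT0 (log2 difference 0.64 ± 0.08 (SE), adjusted p = 0.000208). Nmrk1, a kinase that passes nicotinamide riboside on to NAD synthesis, had 53.5, 47.8 and 33.2 FPKM at ZT12, against 23.9, 21.8 and 27.3 FPKM at ZT0 (log2 difference 0.85 ± 0.16 (SE), adjusted p = 0.00400). The epoxide hydrolase Ephx1 had 33.9, 39.3 and 34.9 FPKM at ZT12, against 26.3, 24.3 and 24.2 FPKM at ZT0 (log2 difference 0.52 ± 0.08 (SE), adjusted p = 0.00124). These 3 rose with no overlap between the times. Srxn1, a sulfiredoxin that repairs peroxiredoxins, fell, with 23.4, 22.1 and 22.6 FPKM at ZT12, against 32.7, 30.7 and 32.3 FPKM at ZT0 (log2 difference -0.48 ± 0.07 (SE), adjusted p = 0.000376). Psat1, of serine synthesis, also fell, with 6.67, 5.99 and 5.76 FPKM at ZT12, against 10.5, 12.6 and 13.0 FPKM at ZT0 (log2 difference -0.91 ± 0.11 (SE), adjusted p = 0.000117). In insulin and IGF signalling, Igfbp1, a binding protein that insulin suppresses, had 1.81, 3.38 and 3.19 FPKM at ZT12, against 7.80, 7.31 and 7.70 FPKM at ZT0 (log2 difference -1.34 ± 0.26 (SE), adjusted p = 0.00456), and Igfbp4 had 541, 572 and 575 FPKM at ZT12, against 379, 381 and 401 FPKM at ZT0 (log2 difference 0.54 ± 0.10 (SE), adjusted p = 0.00280). Igfbp1 was highest at ZT4 (8.10 ± 1.19 FPKM, SD, n = 3) and lowest at ZT20 (2.17 ± 0.837 FPKM).

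**Figure D4:**
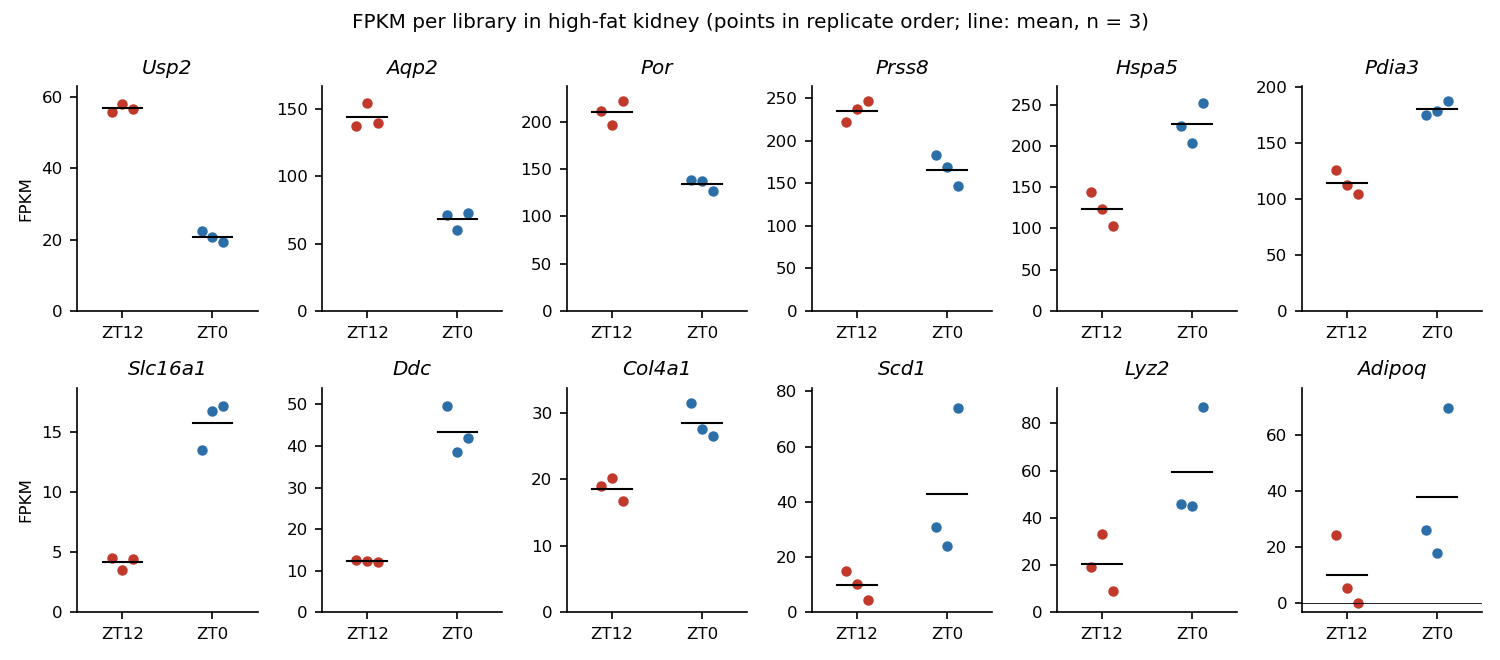
FPKM (vertical axes, which include 0) of 12 genes in each of the 3 ZT12 libraries (red, left) and the 3 ZT0 libraries (blue, right) of the high-fat diet, in the order of replicates 2, 4 and 5 and of replicates 1, 3 and 4, with a line at each mean. Usp2, Aqp2, Por and Prss8 are higher and Hspa5, Pdia3, Slc16a1 and Ddc lower at ZT12 in every library, while Scd1, Lyz2 and the adipocyte gene Adipoq are highest in the third ZT0 library and lowest in the third ZT12 library.

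Several strongly lower genes had the same highest and lowest library as the adipocyte transcripts. Scd1, a fatty acid desaturase, had 15.1, 10.2 and 4.35 FPKM at ZT12, against 31.1, 23.9 and 74.0 FPKM at ZT0 (log2 difference -2.05 ± 0.49 (SE), adjusted p = 0.0176). Lyz2, a macrophage lysozyme, had 19.2, 33.0 and 9.16 FPKM at ZT12, against 46.0, 45.2 and 86.7 FPKM at ZT0 (log2 difference -1.62 ± 0.35 (SE), adjusted p = 0.00898). Adipoq, the fat hormone adiponectin, had 24.3, 5.30 and 0.0852 FPKM at ZT12, against 25.9, 17.9 and 69.8 FPKM at ZT0, and did not pass (adjusted p = 0.152). All 3 were lowest in ZT12 replicate 5 and highest in ZT0 replicate 4. Ccl6 (-1.33 ± 0.31) and Anxa1 (-1.25 ± 0.31) had the same lowest and highest library. Without ZT12 replicate 5 the adjusted p was 0.105 for Scd1, 0.0481 for Lyz2, 0.0853 for Ccl6 and 0.108 for Anxa1. Without ZT0 replicate 4 it was 0.0765, 0.0463, 0.0671 and 0.0810 in that order of genes. With the adipocyte score as covariate the differences were -0.98 for Scd1 (adjusted p = 0.0472), -1.24 for Lyz2 (0.0725), -0.98 for Ccl6 (0.109) and -0.94 for Anxa1 (0.126). Without both libraries together they were -1.10 for Scd1 (0.272), -0.85 for Lyz2 (0.149), -0.80 for Ccl6 (0.231) and -0.68 for Anxa1 (0.281).

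Of the 12 adipocyte markers only Lep (leptin) passed, at -2.74 ± 0.78 (adjusted p = 0.0388), with a median over the 12 of -1.96 log2, and all 12 differences were below 0. The Lep call held only without ZT12 replicate 2 among the single libraries left out. On normal chow the median of the 12 was 0.30 log2 and none passed in limma. The part of the adipocyte transcripts in these results was not tested beyond the covariate.

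Matrix genes leaned lower: of 12 measured, 7 fell (58.3%, against 6.27% of all genes) and all 12 had negative differences, with a median of -0.60 log2. Col4a1, a chain of basement membrane collagen, had 19.0, 20.1 and 16.7 FPKM at ZT12, against 31.4, 27.5 and 26.5 FPKM at ZT0 (log2 difference -0.60 ± 0.11 (SE), adjusted p = 0.00272), and its partner Col4a2 had 17, 19.0 and 16.8 FPKM at ZT12, against 25.9, 22.7 and 23.2 FPKM at ZT0 (log2 difference -0.43 ± 0.09 (SE), adjusted p = 0.00771). Both were lower in every ZT12 library. Sparc, a matrix glycoprotein, had 50.3, 56.9 and 43.8 FPKM at ZT12, against 76.0, 64.0 and 102 FPKM at ZT0 (log2 difference -0.66 ± 0.14 (SE), adjusted p = 0.00901), and lost its call without ZT12 replicate 5 (adjusted p = 0.0590). The fibrillar collagen Col3a1 was called at -1.14 ± 0.26, but not without ZT0 replicate 4 (0.0614) or ZT12 replicate 5 (0.0815). Without both libraries the differences were -0.38 for Sparc and -0.64 for Col3a1. The count of 7 became 3 without ZT12 replicate 5, 2 with the adipocyte covariate, and 1 without ZT12 replicate 5 and ZT0 replicate 4 together. Col4a1 passed in all of these.

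Podocyte, intercalated cell and blood transcripts were lower as well, with 60%, 50% and 75% of the markers called lower, against 6.27% of all genes. Of the 5 podocyte markers 3 fell, among them Podxl (-0.43 ± 0.11), which coats the foot processes, and Synpo (-0.49 ± 0.15), which binds their actin, and the sum of the 5 was 30.4 to 40.3 FPKM at ZT12 and 49.6 to 67.8 FPKM at ZT0. Without ZT0 replicate 1, ZT0 replicate 3, ZT12 replicate 4 or ZT12 replicate 5 the number was 1. Of 4 intercalated cell markers, the pump subunits Atp6v0d2 (-0.62 ± 0.14) and Atp6v1g3 (-0.50 ± 0.10) fell, and without ZT12 replicate 5 the number was 1. Of 4 blood markers 3 fell, among them the erythroid heme enzyme Alas2 with 2.54, 2.31 and 1.76 FPKM at ZT12, against 5.82, 3.98 and 5.60 FPKM at ZT0 (log2 difference -1.05 ± 0.18 (SE), adjusted p = 0.00152). The others were the hemoglobin genes Hbb-b1 and Hbb-b2, near-identical copies. The number was 1 without ZT0 replicate 1, ZT0 replicate 4, ZT12 replicate 4 or ZT12 replicate 5. The 5 endothelial markers summed to 74.3 to 82.8 FPKM at ZT12 and 85.4 to 105 FPKM at ZT0. None passed the threshold in limma, and 4 had an unadjusted p under 0.05, against 2929 of all 11076 genes.

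Smaller lists held isolated calls. The cell cycle inhibitor Cdkn1a (p21) fell, with 2.99, 3.56 and 2.15 FPKM at ZT12, against 4.96, 6.39 and 7.77 FPKM at ZT0 (log2 difference -1.02 ± 0.19 (SE), adjusted p = 0.00373), and lost its call without ZT12 replicate 5 and ZT0 replicate 4 together (adjusted p = 0.10). The interferon-induced Rsad2 (viperin) was the 1 member of 16 that passed (6.25%, against 6.27% lower of all genes), at -0.80 ± 0.18. It too was lost without those 2 libraries together (adjusted p = 0.0923). None of 6 MHC class II genes, 11 autophagy genes or 20 ribosome assembly factors passed in limma, with 0, 3 and 4 at an unadjusted p under 0.05. Of all 11076 genes 8.58% passed, and 2929 had an unadjusted p under 0.05. In lists this short, counts of 0 are little removed from that share.

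The title of the study asks how a high-fat diet changes daily cycles in the kidney, and the same contrast was therefore set against that on normal chow. No gene of 11144 differed between the diets at an adjusted p under 0.05 (0.0%), and 443 (3.98%) did at an unadjusted p under 0.05. The smallest adjusted p was 0.765. The tables of the 2 diets were deposited apart and may have been normalized separately, so each difference between times was taken within its own table, and levels of the 2 diets are only set side by side. On simulated data with independent noise and 200 changed genes, this test found 64% of differences of 1 log2, 92% of 1.5 log2 and 4% of 0.5 log2. These shares do not carry over to the measured data, where diet differences of -1.40 (Dbp) and 1.96 (Nfil3) did not pass. Small differences between diets were thus not detectable, and larger ones could be missed. Of the 945 called genes that were measured in this fit, 72 (7.62%) had an unadjusted p under 0.05. On normal chow 236 of 253 of the genes higher under the high-fat diet were also above 0, and 675 of 692 of the lower ones below 0, of which 88 and 292 passed the threshold on normal chow. These counts were not set against the shares over all genes. The calls on normal chow rest on the spread of all 36 libraries, with which the high-fat contrast itself called 423 genes.

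The clock genes gave the same picture of shared direction. Of the 21 called on either diet, 15 differed by less under the high-fat diet. This count was not tested or set against the share over all genes, and it shows no difference between the diets. Of 26 measured clock genes 17 passed under the high-fat diet and 19 on normal chow, 15 of them on both diets in the same direction. With the spread taken from all 36 libraries, 1 activator or receptor rose and 2 fell under the high-fat diet. In that fit 5 repressors rose, and of the output factors 6 rose and 1 fell. For 10 of the 26 the unadjusted p of the diet difference was under 0.05, and for none did the adjusted p fall below 0.95. Dbp averaged 29.3 ± 3.74 FPKM at ZT12 and 2.97 ± 0.948 FPKM at ZT0 under the high-fat diet, and 48.5 ± 5.60 FPKM at ZT12 and 1.69 ± 0.767 FPKM at ZT0 on normal chow (SD, n = 3 each). The resulting log2 differences of 3.13 ± 0.23 and 4.53 ± 0.25 were -1.40 ± 0.35 apart (SE, unadjusted p = 0.000374, adjusted p = 0.952). Arntl fell by less under the high-fat diet (-2.71) than on normal chow (-3.60), a difference of 0.89 ± 0.25 (unadjusted p = 0.00107, adjusted p = 1.0). Ppard likewise had -1.73 and -2.74, a difference of 1.01 ± 0.29 (unadjusted p = 0.00178, adjusted p = 1.0).

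Nr1d1 had opposite signs on the diets. Under the high-fat diet it averaged 13.5 ± 1.28 FPKM at ZT12 and 17.6 ± 1.43 FPKM at ZT0, against 25.5 ± 8.23 FPKM at ZT12 and 12.6 ± 5.41 FPKM at ZT0 on normal chow (SD, n = 3 each). The diet difference of -1.41 ± 0.38 log2 had an unadjusted p of 0.00101 and an adjusted p of 1.0. Nfil3 differed by -0.85 under the high-fat diet and -2.81 on normal chow (unadjusted p = 0.00333, adjusted p = 1.0), and Cry1 by 0.25 and -0.81 (0.0252, 1.0). Per1, Ciart and Usp2 differed between the diets by 0.26 ± 0.42, -0.35 ± 0.35 and -0.09 ± 0.20 (unadjusted p = 0.547, 0.332 and 0.640).

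**Figure D5:**
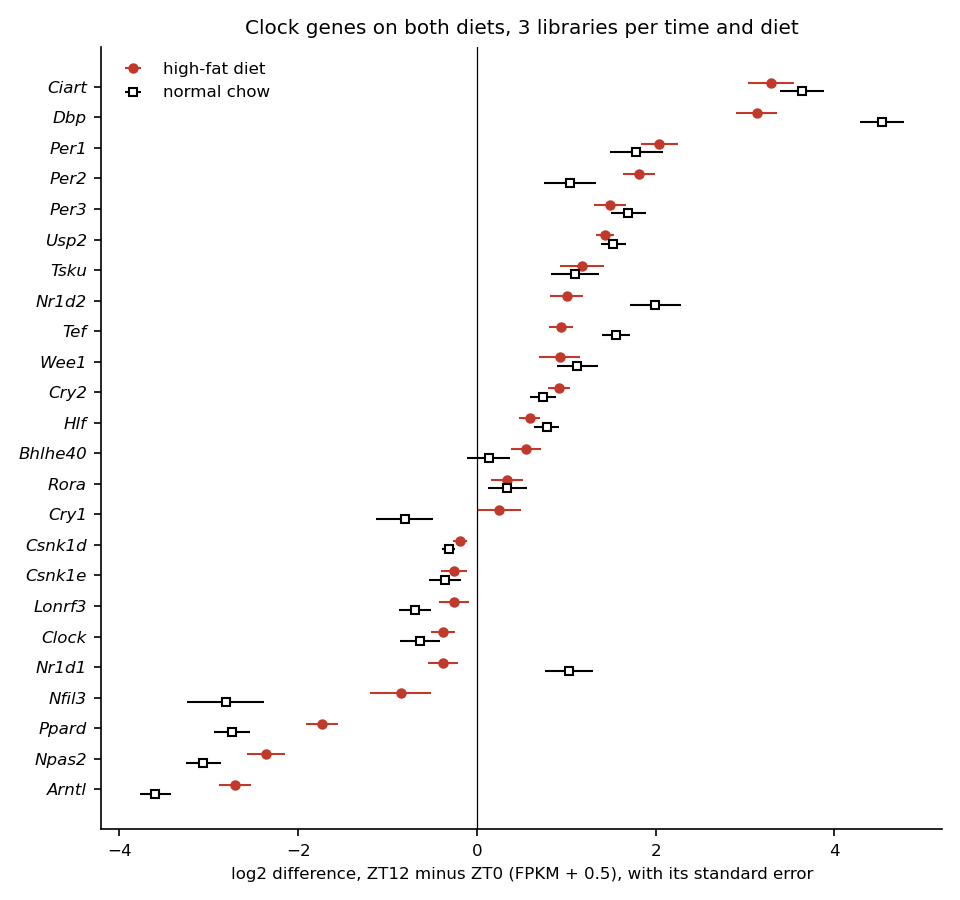
Log2 difference between ZT12 and ZT0 (horizontal axis) with its standard error for 24 clock genes under the high-fat diet (filled red circles, above) and on normal chow (open squares, below). The signs match for 22 of these 24 genes; Nr1d1 and Cry1 lie on opposite sides of 0, and the adjusted p of the diet difference is 0.95 or more for all of them.

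Outside the clock, with unnamed gene models left out, the smallest p-values of the diet difference belonged to Mrps18c, Vnn1 and Rhobtb1. Mrps18c, a mitochondrial ribosomal protein, averaged 77.8 ± 9.25 FPKM at ZT12 and 88.1 ± 2.72 FPKM at ZT0 under the high-fat diet, and 92.7 ± 3.66 FPKM at ZT12 and 73.9 ± 4.64 FPKM at ZT0 on normal chow (SD, n = 3 each; diet difference -0.51 ± 0.11, unadjusted p = 6.86e-05, adjusted p = 0.765). Vnn1, a pantetheinase that PPAR alpha induces, differed by -0.17 under the high-fat diet and 0.71 on normal chow (unadjusted p = 0.000188, adjusted p = 0.952). Rhobtb1 differed by less under the high-fat diet (-0.72, against -1.48 on normal chow, unadjusted p = 0.000427, adjusted p = 0.952). Aacs had 1.20 and 0.10 (unadjusted p = 0.00120, adjusted p = 1.0). These genes were chosen for their small p, so the values describe and do not show a difference.

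Of the endoplasmic reticulum chaperones 13 of 20 fell under the high-fat diet and 12 of 20 on normal chow, with medians of -0.50 and -0.54 log2. Of the sterol synthesis genes 5 of 24 fell under the high-fat diet and 12 of 24 on normal chow, with medians of -0.12 and -0.49. The counts of the diets rest on different spreads, since those on normal chow use the spread of all 36 libraries. With that spread 11 endoplasmic reticulum chaperones and 1 sterol synthesis gene fell under the high-fat diet. Differences between these counts were not tested, and the counts were not set against the share of all genes on normal chow. One normal chow library of ZT0, replicate 5, held 1346 FPKM of the adrenal gene Cyp21a1, against at most 0.0863 FPKM in the 6 high-fat libraries. Without it, as without each of the other 11 libraries, no gene passed the test of the diet difference in limma.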

How the data were processed

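Kidney RNA was measured in 36 libraries. TRIzol extraction and a TruSeq kit, which does not mark strand, are given per the labels' protocols. The deposited values are FPKM made by the authors with CASAVA 1.8.2, Bowtie and Cuffnorm on mm10, per the submitters' processing notes, in 1 table per diet of 24883 rows. For Bowtie and Cuffnorm no version is stated in these notes. Rows of 280 repeated symbols (817 rows) were left out.

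Values were tested as log2(FPKM + 0.5) with limma 3.58.1 in R 4.3.3, a mean-variance trend and Benjamini-Hochberg adjustment at 0.05. The time contrast was fitted on 6 group means over the 18 high-fat libraries, for genes averaging 1 FPKM or more. The diet comparison used 12 group means over all 36 libraries, and so did the calls on normal chow. On simulated data with independent noise and 11076 genes, 200 of them changed, the time contrast recovered 52% of changes of 0.5 log2 and 96% of 1 log2. Relative depth came from low values of 2368 genes, of which 89.8% lay within 0.05 of a whole multiple of a step.

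Members, lists and rules were chosen with earlier results of these data known. Named genes were all measured clock genes, the 12 highest and 12 lowest called genes averaging 5 FPKM or more whose groups did not overlap (unnamed gene models left out), up to 5 members by p of each other list, and up to 5 genes per direction by p for the diet difference. A few members are not reported here. Members beyond the rule were named after their values were seen. Lists are described by counts and medians, with no set test. Gene coordinates come from GENCODE M21 (GRCm38) and count from 1. Replicate numbers were not used as pairs in the main test: ZT12 and ZT0 share only number 4. Alternatives were other pseudocounts, filters, rescalings, priors, sample sets, a replicate block, an adipocyte covariate, a GC correction and leaving out each library. No pair of libraries held identical values. In all labels the diet stands under a tag that mentions ZT3, none of the 6 times, and times were read from the titles.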

Additional observations from a re-analysis of the deposited data

How the results depend on the processing

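The time contrast called 950 genes (255 higher, 695 lower at ZT12), and between 736 and 961 with another pseudocount, filter, rescaling, prior or a GC correction. The direction of the calls moved with scaling: median ratio rescaling gave 526 higher and 435 lower, and upper quartile rescaling 419 lower. The number fell to 404 (101 higher, 303 lower) with the adipocyte covariate, to 423 (109 and 314) with the spread taken from all 36 libraries, and, for lower genes, to 449 with the 6 libraries of the contrast alone. With the replicate block it was 437 (160 higher, 277 lower), and 474 (167 and 307) with the block and the GC correction. The cause of these changes was not tested. Where libraries were left out, their smaller number and which of them was missing cannot be told apart. After the mean of its group was taken from each high-fat library, same-numbered libraries of different times correlated at -0.19 to 0.44. The median over these 26 pairs was 0.03 (-0.005 for other pairs). Whether any single pair shares more than its number was not tested. Leaving out 1 library gave 362 to 854 genes, 111 to 257 of them higher and 251 to 671 lower. Leaving out ZT12 replicate 5 and ZT0 replicate 4 together, an alternative chosen after seeing the data, gave 230 genes (62 higher, 168 lower).

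Of 124 named genes 111 were called. None of the 111 changed direction in any alternative that tested it, and 42 kept their call in every alternative that tested them. With the filter at a mean FPKM of 5 only 98 of the 124 were tested, so low genes did not face that alternative. The test of the diet difference called 0 genes in every alternative and without each of the 12 libraries. Absolute depth is unknown, so low genes such as Npas2 and Ciart carry a counting error that could not be given. With 3 libraries per time and a Cuffnorm table per diet, small differences stay below what the tests can show.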
